A study of Sorghum bicolor with 6 samples.

Results

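The genes described here are the 3 phytochrome genes of sorghum (Sorghum bicolor), PHYA (Sobic.001G111500.v3.2), PHYB (Sobic.001G394400.v3.2, the maturity locus Ma3) and PHYC (Sobic.001G087100.v3.2, the maturity locus Ma5). They were taken by identifier from 34129 gene models, and all 3 passed the filter on low counts that left 20820 genes to test. Leaf RNA was sequenced in 6 libraries from plants aged 4 weeks: 3 libraries from plants labelled SbGhd7 OE, which overexpress the flowering regulator SbGhd7, and 3 from plants carrying an empty vector. The labels give no cultivar, promoter, transformation event, day length or time of harvest, and whether the replicates are separate plants is not stated. Each p-value from edgeR or DESeq2 below thus rests on how far replicate libraries scatter, with information on scatter shared across genes. Part of that scatter may be technical. The exact permutation tests of shares, ratios and sums give their smallest possible p wherever the groups do not overlap. No table used here pairs the identifiers with names, so the names rest on general knowledge of published sorghum genes.

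Phytochromes are red and far-red light receptors that carry a bilin chromophore and switch between an inactive and an active form as they absorb light. The PHYA protein is light-labile: it accumulates in darkness, is degraded in light and mediates far-red responses, and in grasses such as oat its gene is also repressed by light. PHYB and PHYC proteins are more stable in light. In sorghum PHYB and PHYC are needed to hold back flowering in long days, and PHYB acts upstream of the floral repressors PRR37 and SbGhd7.

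Library totals ranged from 27844391 to 30836215 counts in SbGhd7 OE and from 30199655 to 35830080 counts in empty vector. SbGhd7 itself matched the labels, with 17295, 10339 and 20367 counts in SbGhd7 OE replicates 1, 2 and 3 and 35, 60 and 35 counts in empty vector replicates 1, 2 and 3. Leaf genes of C4 photosynthesis were abundant in every library, with phosphoenolpyruvate carboxylase (PEPC) between 13557 and 17798 CPM in SbGhd7 OE and between 3350 and 3950 CPM in empty vector. The 4 leaf markers did not move together. PEPC and PPDK, which act in the mesophyll, rose by log2 fold changes of 2.13 and 1.17 (edgeR adjusted p = 6.6e-05 and 0.0026). The bundle sheath gene NADP-ME fell by 0.99 on the log2 scale (edgeR adjusted p = 0.0012), and the Rubisco small subunit gene RBCS had a log2 fold change of -0.39 (edgeR adjusted p = 0.15), or -0.61 without empty vector replicate 3 (edgeR adjusted p = 0.015). The part of these differences in the phytochrome changes was not tested. CPM is a gene's count as a rate per library total, with the totals scaled between libraries by the trimmed mean of M-values (TMM). Empty vector replicates 1 and 2 resembled each other more than any other pair of one group, with a median chi-square per gene of 1.93 against 4.02 to 7.04 for the other pairs.

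All 3 phytochrome genes fell in SbGhd7 OE leaves. PHYA fell 6.28-fold, PHYC 3.47-fold and PHYB 2.36-fold, each at an adjusted p under 0.05 in edgeR's quasi-likelihood test. For none of the 3 did the libraries of the groups overlap. The background of the comparison was wide: 53.3% of all tested genes were called, and 25.3% were called lower in SbGhd7 OE. Among the 2082 genes with the highest mean CPM, where all 3 phytochrome genes stood, these figures were 67.7% and 29.3%. The groups did not overlap for 64.0% of tested genes, and for 31.5% the SbGhd7 OE libraries were the lower ones. That 3 of 3 genes fell is therefore a description of these genes and does not set them apart. In bulk leaf RNA, less RNA per cell and fewer cells that express a gene cannot be told apart.

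PHYA had 18407, 13303 and 15448 counts in SbGhd7 OE replicates 1, 2 and 3, and 103693, 95674 and 151617 counts in empty vector replicates 1, 2 and 3. After scaling these stood at 684.1, 433.0 and 556.7 CPM in SbGhd7 OE, and at 3316, 3097 and 4105 CPM in empty vector. The highest SbGhd7 OE library was thus 4.53-fold below the lowest empty vector library. The mean level was 557.9 ± 125.5 CPM in SbGhd7 OE and 3506 ± 530.2 CPM in empty vector (SD, n = 3 each). The log2 fold change was -2.65 (SE 0.220, edgeR adjusted p = 4.4e-05). Within each group PHYA varied more than the other phytochrome genes, with a coefficient of variation of 22.5% in SbGhd7 OE and 15.1% in empty vector. The lowest PHYA level was in SbGhd7 OE replicate 2 and the highest in empty vector replicate 3. Without SbGhd7 OE replicate 2 the log2 fold change was -2.50, and without empty vector replicate 3 it was -2.54.

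PHYA was among the most counted transcripts of the control leaves. It took 0.0639%, 0.0431% and 0.0555% of all counts in SbGhd7 OE replicates 1, 2 and 3, and 0.338%, 0.317% and 0.423% in empty vector replicates 1, 2 and 3. By count it ranked 166, 272 and 189 among all gene models in SbGhd7 OE, and 23, 27 and 10 in empty vector. The difference of the group means, -2948 CPM, was the 4th largest loss of CPM among the 20820 genes tested. Transcript lengths were not used, so these ranks compare counts and not molecules. On the log2 scale 441 tested genes (2.12%), PHYA included, had a fitted fall as large as that of PHYA or larger, and 47 of these were among the 2082 genes with the highest mean CPM.

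PHYB had 2581, 2196 and 2334 counts in SbGhd7 OE replicates 1, 2 and 3, and 6418, 6398 and 6733 counts in empty vector replicates 1, 2 and 3. The scaled levels were 95.9, 71.5 and 84.1 CPM in SbGhd7 OE and 205.2, 207.1 and 182.3 CPM in empty vector. PHYB showed the narrowest gap of the 3 genes: the highest SbGhd7 OE library stood 1.90-fold below the lowest empty vector library. The log2 fold change was -1.24 (SE 0.138, edgeR adjusted p = 1.8e-04). A fall of this size or larger was fitted for 9.65% of tested genes, and for 179 of the 2082 with the highest mean CPM. Between libraries of one group PHYB varied by 14.6% in SbGhd7 OE and 6.97% in empty vector (coefficient of variation). Poisson counting error alone would give 2.05% in SbGhd7 OE and 1.24% in empty vector, if each value stood for 1 fragment.

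PHYC had 1652, 1666 and 1663 counts in SbGhd7 OE replicates 1, 2 and 3, and 6638, 6458 and 6912 counts in empty vector replicates 1, 2 and 3. The scaled levels were 61.4, 54.2 and 59.9 CPM in SbGhd7 OE and 212.2, 209.03 and 187.1 CPM in empty vector. PHYC was the steadiest of the 3 genes, with coefficients of variation of 6.47% in SbGhd7 OE and 6.74% in empty vector. The groups were separated 3.05-fold at their nearest libraries. The log2 fold change was -1.79 (SE 0.115, edgeR adjusted p = 1.5e-05). A fall of this size or larger was fitted for 4.87% of tested genes, and for 97 of the 2082 with the highest mean CPM. In SbGhd7 OE, replicate 2 had the lowest scaled level of all 3 phytochrome genes and also of SbGhd7 (336.5 CPM, against 642.8 and 734.03 CPM in replicates 1 and 3). In empty vector, replicate 3 had the lowest PHYB and PHYC levels and the highest PHYA level.

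**Figure D1:**
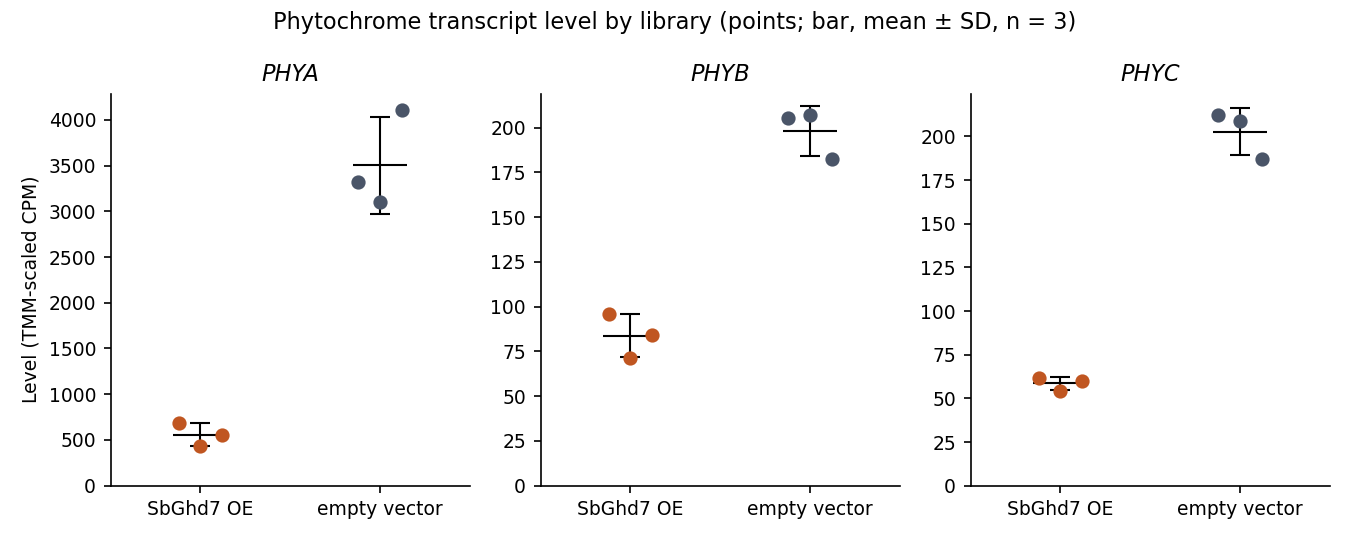
Scaled level (CPM, linear axis from 0) of PHYA, PHYB and PHYC in each of the 3 SbGhd7 OE libraries and the 3 empty vector libraries, with the mean and SD of each group. For each gene all SbGhd7 OE points lie below all empty vector points, and the gap is widest for PHYA, at 557.9 CPM in SbGhd7 OE against 3506 CPM in empty vector.

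**Figure D2:**
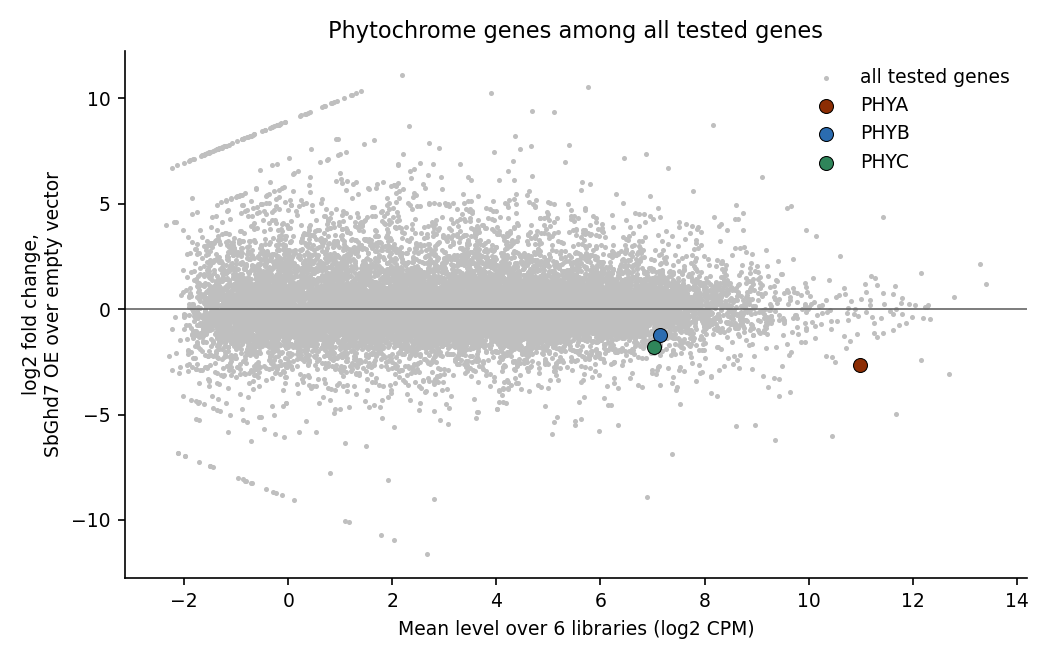
Log2 fold change (SbGhd7 OE over empty vector) against the mean level over the 6 libraries (log2 CPM) for all 20820 tested genes in grey, with the phytochrome genes in colour. PHYA lies among the genes with the highest mean CPM at a log2 fold change of -2.65. PHYB and PHYC lie close together in mean CPM, at log2 fold changes of -1.24 and -1.79.

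The summed phytochrome level fell mostly through PHYA. PHYA, PHYB and PHYC together stood at 841.4, 558.7 and 700.8 CPM in SbGhd7 OE replicates 1, 2 and 3, and at 3733, 3513 and 4474 CPM in empty vector replicates 1, 2 and 3. The sum was 5.63-fold lower in SbGhd7 OE, a log2 difference of -2.49 with SDs of 0.296 in SbGhd7 OE and 0.182 in empty vector (n = 3 each). The exact permutation p was 0.1 (two-sided), and with 3 libraries a group it cannot be smaller. PHYA accounted for 91.9% of the lost CPM, and it already held on average 89.6% of the phytochrome count in empty vector. An equal fall of all 3 genes would thus also have been mostly a loss of PHYA. The sum of PHYB and PHYC alone averaged 142.4 ± 15.9 CPM in SbGhd7 OE and 401.0 ± 27.4 CPM in empty vector (SD, n = 3 each), 2.82-fold lower.

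The make-up of the phytochrome count also differed between the groups. PHYA held a smaller share, and PHYB and PHYC larger ones, in SbGhd7 OE leaves. These are shares of counts, not of molecules: a longer transcript gives more counts, and transcript lengths were not used here. A difference in a share between the groups does not depend on the scaling between libraries.

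PHYA made up 81.3%, 77.5% and 79.4% of the summed phytochrome count in SbGhd7 OE replicates 1, 2 and 3, and 88.8%, 88.2% and 91.7% in empty vector replicates 1, 2 and 3. The mean share was 79.4 ± 1.90% in SbGhd7 OE and 89.6 ± 1.91% in empty vector (SD, n = 3 each), a difference of -10.2 percentage points. The groups did not overlap, and their difference was larger than the spread within either. How often shares of other gene sets overlap was not counted. For single genes, the groups did not overlap for 64.0% of those tested. PHYB held 12.1 ± 0.699% of the count in SbGhd7 OE and 5.16 ± 0.957% in empty vector (SD, n = 3 each), 6.91 points more. PHYC held 8.52 ± 1.20% in SbGhd7 OE and 5.27 ± 0.954% in empty vector (SD, n = 3 each), 3.25 points more. For each of the 3 shares an exact two-sided permutation test gave p = 0.1, also after adjustment over the 3, and the design allows no smaller value. The 95% Wilson intervals of single shares had half-widths of at most 0.625 points. They cover counting error only, and that only if each value stands for 1 fragment.

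**Figure D3:**
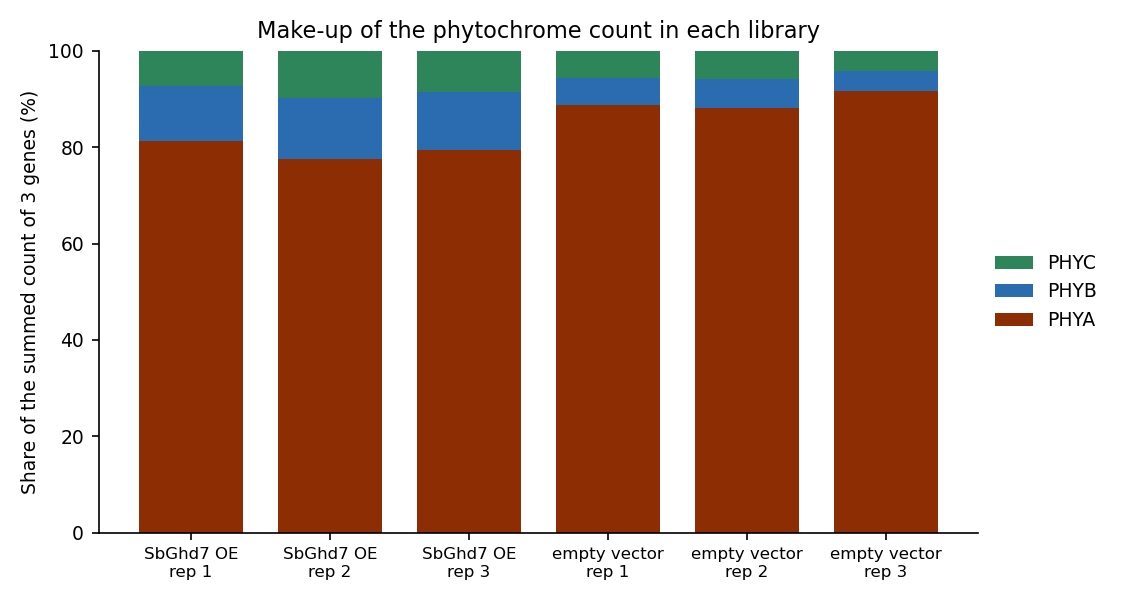
Share (%) of PHYA, PHYB and PHYC in the summed count of the 3 genes, stacked for each library. The PHYA part reaches between 77.5% and 81.3% in the SbGhd7 OE libraries and between 88.2% and 91.7% in the empty vector libraries.

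The fitted falls of the 3 genes differed in size. Within each library the ratio of one phytochrome count to another is free of the scaling between libraries and addresses this directly. With 3 libraries a group, the exact permutation test of a ratio cannot give a p below 0.1. It thus cannot decide whether the falls differ. The PHYA count was 7.13, 6.06 and 6.62 times the PHYB count in SbGhd7 OE replicates 1, 2 and 3, and 16.2, 15.0 and 22.5 times in empty vector replicates 1, 2 and 3. The log2 ratio of PHYA over PHYB averaged 2.72 ± 0.12 in SbGhd7 OE and 4.14 ± 0.31 in empty vector (SD, n = 3 each), a difference of -1.42. PHYA also lost ground to PHYC: their log2 ratio averaged 3.23 ± 0.24 in SbGhd7 OE and 4.10 ± 0.31 in empty vector (SD, n = 3 each), a difference of -0.87.

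PHYB and PHYC had nearly equal counts in control leaves and unequal ones in SbGhd7 OE leaves. The PHYC count was 0.640, 0.759 and 0.713 times the PHYB count in SbGhd7 OE replicates 1, 2 and 3, and 1.03, 1.01 and 1.03 times in empty vector replicates 1, 2 and 3. The order of the counts thus turned: PHYC was below PHYB in all 3 SbGhd7 OE libraries and slightly above it in all 3 empty vector libraries. The log2 ratio averaged -0.51 ± 0.12 in SbGhd7 OE and 0.03 ± 0.02 in empty vector (SD, n = 3 each), a difference of -0.54. Of the PHYB and PHYC counts together, PHYC held 41.3 ± 2.08% in SbGhd7 OE and 50.6 ± 0.312% in empty vector (SD, n = 3 each).

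None of the 3 ratios overlapped between the groups. How often ratios of other gene pairs overlap was not counted. For single genes, the groups did not overlap for 64.0% of those tested. An exact two-sided permutation test gave p = 0.1 for each phytochrome ratio, also after adjustment over the 3 ratios, the smallest value this design allows. The same differences were also tested in edgeR across all genes, with the libraries scaled to 1 of the phytochrome counts in place of TMM, a test chosen after seeing the data. Scaled to PHYB, PHYA was lower by a log2 value of -1.44 (SE 0.203, edgeR adjusted p = 8.0e-05) and PHYC by -0.54 (SE 0.151, edgeR adjusted p = 0.0069), in a fit that called 77.9% of all genes. Scaled to PHYC, the log2 value for PHYA was -0.88 (SE 0.208, edgeR adjusted p = 0.0031), in a fit that called 88.9%. With most genes called in both fits, such a call is the usual outcome and does not set the phytochrome pairs apart.

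**Figure D4:**
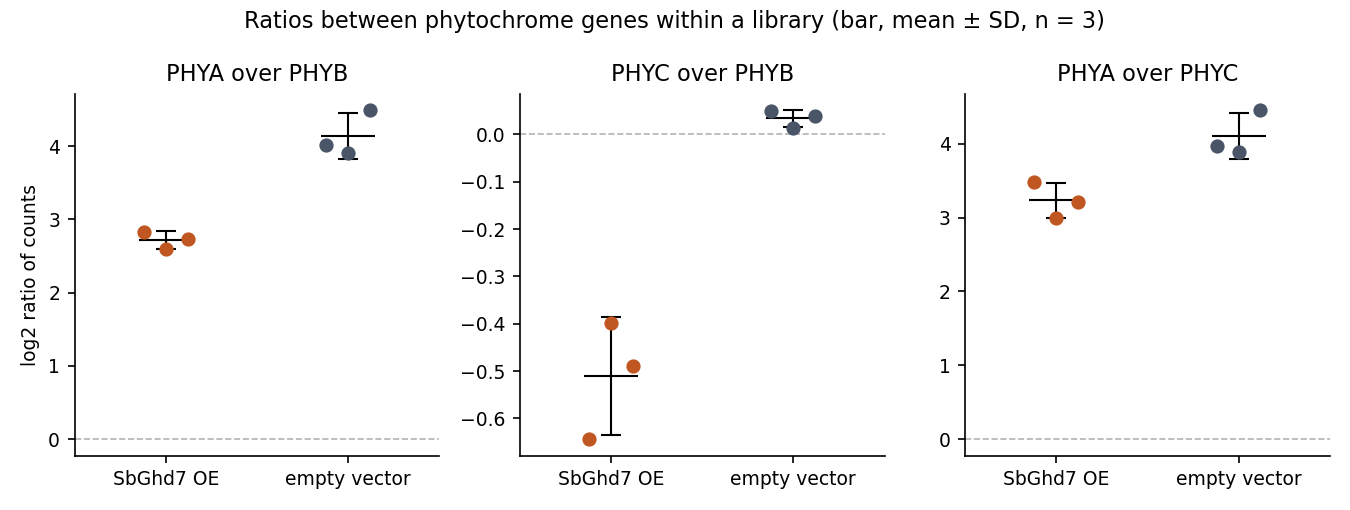
Log2 ratio of counts between the members of each pair of phytochrome genes, per library, with the mean and SD of each group; the dashed line marks equal counts. All SbGhd7 OE points lie below all empty vector points in each panel, and PHYC over PHYB lies below 0 in SbGhd7 OE (mean -0.51) and just above it in empty vector (mean 0.03).

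The profile most like that of PHYA belonged to a gene model with almost the same number. Likeness was measured as the Euclidean distance between log2 CPM values over the 6 libraries, each gene centred on its own mean, against 11778 other genes with a mean of at least 10 CPM. The model nearest to PHYA was Sobic.001G111366, at a distance of 0.152, which stands 2 places before PHYA in the order of gene numbers. It had 1976, 1547 and 1773 counts in SbGhd7 OE replicates 1, 2 and 3, and 10918, 10006 and 16014 counts in empty vector replicates 1, 2 and 3. These are 10.7%, 11.6% and 11.5% of the PHYA count in SbGhd7 OE, and 10.5%, 10.5% and 10.6% in empty vector. Its log2 fold change was -2.56 (SE 0.186, edgeR adjusted p = 2.4e-05). A value close to that of PHYA follows from picking the model by its profile in the same libraries. Whether this model overlaps PHYA, or shares reads with it, was not tested. With its counts added to PHYA, the log2 fold change of PHYA was -2.64 and its share of the phytochrome count differed by -9.36 points.

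Other gene models near the phytochrome genes moved in different ways. Of the 6 models within 3 places of PHYA, 5 were tested, of which 3 fell, 1 rose and 1 did not pass, where 25.3% of all tested genes fell and 28.0% rose. The 3 that fell include Sobic.001G111366, and the other 2 had at most 7 counts in any SbGhd7 OE library and passed the filter through their empty vector libraries. Within 3 places of PHYC, 3 were tested, of which 1 fell, 1 rose and 1 did not pass. Within 3 places of PHYB only 1 was tested, and it did not pass. The gene nearest to PHYB in profile was Sobic.005G160100, at a distance of 0.133 and a log2 fold change of -1.23. The gene nearest to PHYC lay at 0.122, with a log2 fold change of -1.80. Fold changes close to those of PHYB and PHYC follow from picking these genes by profile in the same libraries.

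The phytochrome genes were not each other's nearest profiles. Among the 11778 genes compared, PHYB ranked 304 by distance to PHYC, and PHYC ranked 1028 by distance to PHYB. PHYA ranked 6638 by distance to PHYB and 1247 by distance to PHYC, while by distance to PHYA itself PHYC ranked 215 and PHYB 613. These ranks are a description of 6 libraries in which the group contrast dominates.

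Genes of the photoperiod pathway that phytochromes feed into moved in both directions. Of 13 listed genes, 9 had enough counts to test: 3 rose, SbGhd7 itself included, 3 fell and 3 did not pass. The other 4, CO, EHD1, CN12 and CN15, had at most 33 counts in any library and were below the filter. The median log2 fold change of the 9 was -0.34, against 0.00 over all tested genes, where 28.0% were called higher and 25.3% lower. Without SbGhd7, whose rise the design fixed, 2 of 8 rose, 3 fell and the median was -0.37. ELF3 (Sobic.009G257300), a component of the evening complex of the clock, fell 3.76-fold, with 28.1, 36.6 and 33.3 CPM in SbGhd7 OE and 131.4, 133.8 and 102.9 CPM in empty vector (edgeR adjusted p = 3.4e-05). GI (Sobic.003G040900), the clock-associated gene GIGANTEA, fell 1.76-fold (edgeR adjusted p = 0.0026). The florigen-family gene CN8 (Sobic.009G199900) also fell, with 0, 1 and 0 counts in SbGhd7 OE and 42, 44 and 31 in empty vector (edgeR adjusted p = 3.8e-04). CN8 passed the count filter only through its empty vector libraries, so its place among the 3 that fell carries no weight, and the alternative filter that asked for CPM of at least 1 in 3 libraries removed it.

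The floral repressor PRR37 (Sobic.006G057866, the maturity locus Ma1), which phytochrome signalling is known to promote in sorghum, did not pass the test. It had 87, 282 and 154 counts in SbGhd7 OE and 259, 307 and 204 in empty vector, so the groups overlapped (log2 fold change -0.40, SE 0.376, edgeR adjusted p = 0.40). LHY, a morning-phased clock gene, rose 30.8-fold (edgeR adjusted p = 1.1e-05). The other ELF3 gene, Sobic.003G191700, rose 1.41-fold (edgeR adjusted p = 0.015). That call was lost without SbGhd7 OE replicate 1 (edgeR adjusted p = 0.055), without empty vector replicate 1 (0.063) and without empty vector replicate 2 (0.077). It was also lost with empty vector replicates 1 and 2 summed (edgeR adjusted p = 0.068). TOC1, a dusk-phased clock gene, and the maturity gene Ma2 did not pass (edgeR adjusted p = 0.056 and 0.11). TOC1 had a log2 fold change of 1.43 that depended on single libraries: it was 0.58 without SbGhd7 OE replicate 2 (edgeR adjusted p = 0.22) and 1.82 without SbGhd7 OE replicate 1 (edgeR adjusted p = 0.0096). It also passed in DESeq2's Wald test (adjusted p = 0.016). Ma2 passed without empty vector replicate 1 (edgeR adjusted p = 0.038). Since several of these are clock genes and the time of harvest is not given, a difference in the phase of the clock and a difference in level cannot be told apart, and the part of the phase in the phytochrome changes was not tested.

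The falls of PHYA, PHYB and PHYC held their size over the processing choices tried. Their log2 fold changes lay between -2.82 and -2.50 for PHYA, between -1.35 and -1.14 for PHYB and between -1.86 and -1.74 for PHYC. The 3 ranges did not overlap, but they come from re-runs on the same 6 libraries and do not measure sampling error.

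**Figure D5:**
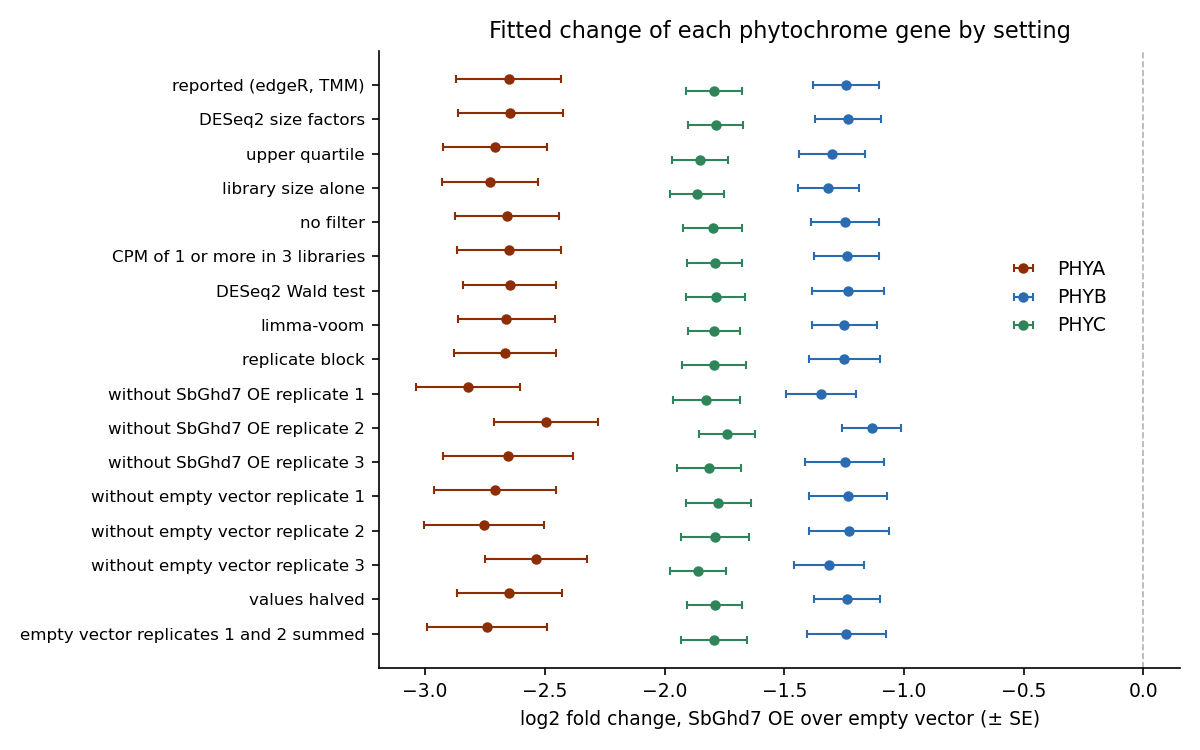
Log2 fold change (SbGhd7 OE over empty vector) of each phytochrome gene with its SE, as reported (top) and under each other scaling, filter, tool, block or set of libraries. PHYA stays between -2.82 and -2.50, PHYC between -1.86 and -1.74 and PHYB between -1.35 and -1.14, and none reaches 0.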

How the data were processed

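Per the labels' protocols, leaf RNA was isolated in TRIzol, cleared of DNA with DNase I and sequenced from NEBNext Ultra libraries. The submitters' processing notes name HISAT2 2.2.1, StringTie 2.2.1 and DESeq2 2.11.40.7. Their roles, the genome build and any strand setting are not stated in the labels. The authors deposited 1 unscaled whole number per gene model and library, treated here as an estimated count; rounding changed none. The value 2 was 2.91 to 3.57 times as frequent as the value 1 in the libraries, so a value may not stand for 1 fragment. The intervals and Poisson errors assume that it does, and cover counting error only. Overlapping genes cannot be separated where the strand is unknown, and how reads of related gene copies were assigned is not stated.

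Groups and replicate numbers came from the sample titles. The filter was filterByExpr, which kept 20820 of the 26611 genes above 0. Counts were scaled by TMM and tested with the robust quasi-likelihood F-test of edgeR 4.0.16 in R 4.3.3, on the group term alone, with p-values adjusted by Benjamini-Hochberg over all genes and a threshold of 0.05. The SE is the absolute log2 fold change divided by the square root of F. The procedure was tested on simulated counts. Shares and log2 ratios used the unscaled counts and exact permutation tests in scipy 1.17.1. The reference table (32945 genes) matched 0 of the identifiers, so no positions, lengths or sequences are given, and a list of other light-signalling genes by description could not be built. Genes named are the 3 members, SbGhd7, a list of 13 photoperiod genes, 4 leaf markers and the nearest profiles, of which 2 identifiers are printed. The members and lists were chosen with earlier results of these data known. Alternatives were other scalings and filters, DESeq2 1.42.0, limma-voom (limma 3.58.1), a replicate block, leaving out each library, a threshold of 0.01, halved values and summing empty vector replicates 1 and 2. Scaling to PHYB or PHYC and adding the neighbouring model to PHYA were chosen after seeing the data.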

Additional observations from a re-analysis of the deposited data

How the results depend on the processing

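PHYA, PHYB and PHYC were lower in SbGhd7 OE, at an adjusted p under 0.05, in each alternative run; their largest edgeR adjusted p-values were 4.4e-04, 0.0015 and 3.3e-04. Leaving out 1 library gave log2 fold changes of -2.82 to -2.50, -1.35 to -1.14 and -1.86 to -1.74, differences in share of -11.1 to -9.07, 6.37 to 7.28 and 2.65 to 3.86 points, and a pool change of -2.63 to -2.34. The log2 ratios differed by -1.53 to -1.24 (PHYA over PHYB), -0.60 to -0.48 (PHYC over PHYB) and -0.997 to -0.697 (PHYA over PHYC). The exact tests of shares and ratios cannot pass 0.05 at 3 against 3. Scaled to a member, edgeR called the ratios at -1.44, -0.54 and -0.88, in fits chosen after seeing the data that called most genes. With empty vector replicates 1 and 2 summed, the log2 fold changes were -2.74, -1.24 and -1.79. The number of genes called at an adjusted p under 0.05 was 11087 of 20820 tested (53.3%). In the alternative runs it lay between 8850 of 21352 (without empty vector replicate 2) and 11513 of 24544 (DESeq2). At an adjusted p under 0.01 it was 7668 of 20820. How many other genes were called in every run was not counted. Scaling moved the median log2 fold change of all genes by less than 0.1 (-0.07 with library size alone). With the replicate number as a block the log2 fold changes were -2.67, -1.25 and -1.79 and 9848 genes were called; same-numbered libraries did not deviate together (correlations 0.0055, -0.055 and -0.105), so the numbers were not treated as pairs. Shares and ratios per transcript length were not run, because no lengths matched.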
